A study of Saccharomyces cerevisiae with 6 samples.

Results

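The genes described here are 8 regulators of nitrogen use in budding yeast: the GATA factors GLN3, GAT1, GZF3 and DAL80, and the signalling genes URE2, NPR1, NPR2 and NPR3. They were taken by gene symbol from the annotation of an Affymetrix Yeast Genome array, and all 8 were found, each with 1 probe set, among 5449 tested genes. RNA came from 6 cultures of strain 26972c (mep1-1, mep2∆, Mep3, ura-), an ammonium transport mutant. In the control group 3 cultures carried the empty vector pYES3, and in the other group 3 carried pYES3 with GmbHLHm1, also called SAT1, which encodes a transcription factor of the basic helix-loop-helix type from soybean. Galactose switches on the promoter of this vector. Every culture was started on proline as nitrogen source with glucose as sugar, then moved for 12 h to medium with 2% galactose and 1 mM ammonium. Both groups therefore share the permease mutations, the change of sugar and the change of nitrogen source. The cultures were seeded from starter cultures, so the p-values below measure the spread between these samples only, and an effect of GmbHLHm1 cannot be told apart from differences among starters or transformed lines.

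Yeast cells offered a good nitrogen source shut down the genes for using poor ones, which is called nitrogen catabolite repression (NCR). Gln3 and Gat1 are zinc finger proteins that bind GATA motifs and activate NCR genes, whereas Dal80 and Gzf3 bind the same motifs and repress. Ure2 holds Gln3 in the cytoplasm when nitrogen is plentiful, and the kinase complex TORC1 controls the same step. Npr1 is a kinase under TORC1 that keeps nitrogen permeases active at the cell surface, and Npr2 and Npr3 are subunits of a complex that inhibits TORC1. The activity of Gln3, Gat1 and Npr1 is set largely on the proteins themselves, by location and phosphorylation. These arrays measured transcripts only.

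DAL80 fell in cells with GmbHLHm1, to 0.695 of its intensity with the empty vector, and it was the only regulator of the 8 to pass the test. The test was limma's moderated test across all 5449 genes (two-sided, adjusted p under 0.05 after Benjamini-Hochberg), which called 12.1% of all genes, so 1 of 8 (12.5%) is close to the share over all genes. The other repressor gene, GZF3, and both activator genes, GLN3 and GAT1, did not pass. Neither did URE2, NPR1, NPR2 or NPR3. Their median log2 change, with DAL80 included, was -0.02, against 0.02 over all genes. All levels below are log2 RMA intensities, all differences are GmbHLHm1 minus empty vector on the log2 scale, and levels of different genes on the array are not compared.

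**Figure D1:**
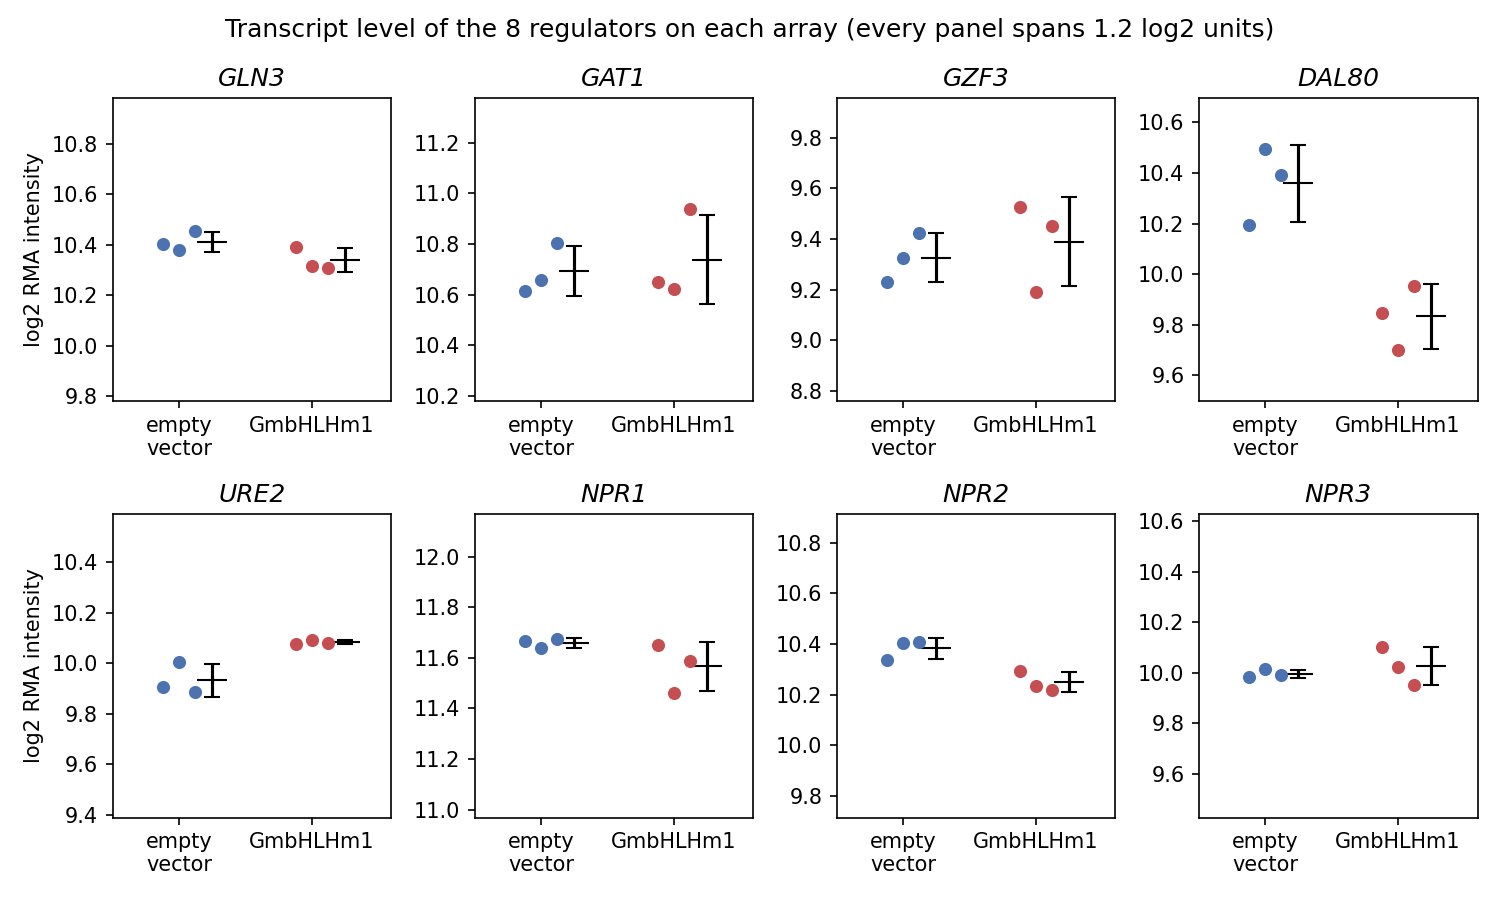
Each panel shows 1 regulator, with log2 RMA intensity on the vertical axis, 1 point per array (3 empty vector in blue, 3 GmbHLHm1 in red, replicates 1 to 3 from left to right) and the mean ± SD beside the points. DAL80 is lower on all 3 GmbHLHm1 arrays, from 9.70 to 9.95, than on the empty vector arrays, from 10.19 to 10.49.

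All 8 regulators lay above the background level on all 6 arrays. This level was taken from probe sets with gene identifiers other than those of S. cerevisiae, and lay between 4.54 and 4.75. MEP2, the ammonium permease gene deleted in this strain, read 3.63 to 4.32 and was below background on all 6 arrays. The spread within groups was larger with GmbHLHm1, with a median SD over all genes of 0.0875 against 0.0502. The S. cerevisiae control probe sets for ribosomal RNA of the small and large subunit (6 of them) differed by a median of -1.03 on the log2 scale (array means 9.37 ± 0.32 with the empty vector and 8.28 ± 0.23 with GmbHLHm1, SD, n = 3 each; two-sided exact permutation p = 0.1, which is the lowest p that 3 against 3 arrays can give). This moved with the same groups as DAL80, and its part in the results was not tested.

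Among the activators, GLN3 (YER040W), the GATA factor held back by Ure2, read 10.40, 10.38 and 10.45 with the empty vector and 10.39, 10.32 and 10.31 with GmbHLHm1. The groups overlapped, since the highest GmbHLHm1 array lay above the lowest empty vector array. Its log2 change was -0.07 ± 0.05 (SE), with a 95% confidence interval from -0.18 to 0.04 and adjusted p = 0.38 with limma. GAT1 (YFL021W), the second activator and itself a target of GATA factors, read 10.62, 10.66 and 10.81 with the empty vector and 10.65, 10.62 and 10.94 with GmbHLHm1. Its groups overlapped widely, and replicate 3 was the highest in each. The log2 change of GAT1 was 0.04 ± 0.10 (SE; 95% interval -0.18 to 0.27; limma, adjusted p = 0.809), and without GmbHLHm1 replicate 3 it became -0.06 (adjusted p = 0.672).

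Among the repressors, DAL80 (YKR034W) read 10.19, 10.49 and 10.39 with the empty vector and 9.85, 9.70 and 9.95 with GmbHLHm1. The groups were separate, and the gap between the lowest empty vector array and the highest GmbHLHm1 array was larger than the SD within either group. The mean went from 10.36 ± 0.15 to 9.83 ± 0.13 (SD, n = 3 each), a log2 change of -0.53 ± 0.10 (SE; 95% interval -0.75 to -0.30; limma, adjusted p = 0.0147). On the linear scale the intensity fell by 30.5%, with a 95% interval of the ratio from 0.595 to 0.811. Ordered from the lowest log2 change upward, DAL80 stood at place 55 of the 5449 genes, and 4.64% of all genes were called lower. The call depends on the control arrays: without empty vector replicate 2 the adjusted p was 0.0539 and without empty vector replicate 3 it was 0.0632, with log2 changes of -0.46 and -0.51. Without any other single array DAL80 passed, and its log2 change lay between -0.61 and -0.46 over these 6 fits. With no moderation of the variances it did not pass (adjusted p = 0.0931). Over all genes the 659 calls became 251, 341 and 293 without empty vector replicate 1, 2 or 3. Without GmbHLHm1 replicate 1, 2 or 3 they became 723, 720 and 462. Losing calls without a control array is therefore not particular to DAL80.

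GZF3 (YJL110C), which encodes a GATA repressor related to Dal80, read 9.23, 9.33 and 9.42 with the empty vector and 9.53, 9.19 and 9.45 with GmbHLHm1. These groups overlapped, and the lowest and the highest array both belonged to GmbHLHm1. The log2 change was 0.06 ± 0.10 (SE; 95% interval -0.16 to 0.29; limma, adjusted p = 0.733). Without GmbHLHm1 replicate 1 it was -0.01. GAT1 and GZF3 varied more than most genes: their SD with GmbHLHm1, 0.175 and 0.176, exceeded that of 84.3% and 84.5% of tested genes. Their intervals are accordingly the widest of the 7 regulators that did not pass.

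**Figure D2:**
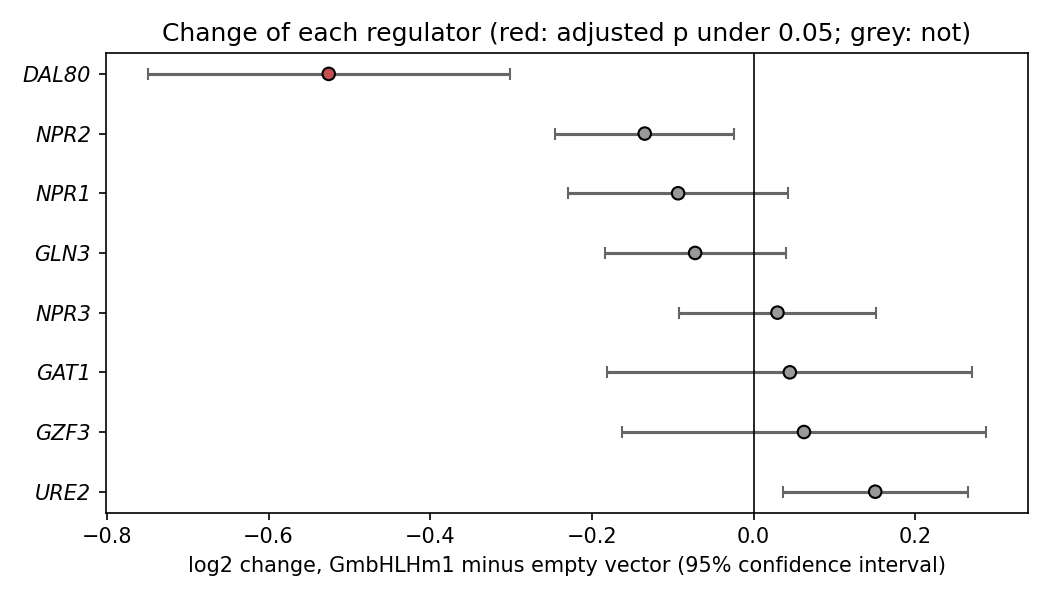
Points give the log2 change of each regulator (GmbHLHm1 minus empty vector) and bars its 95% confidence interval from the limma fit, red where the adjusted p is under 0.05. DAL80 stands apart at -0.53, and the intervals of the other 7 lie between -0.25 and 0.29.

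URE2 (YNL229C), whose protein binds Gln3 and has the fold of a glutathione transferase, read 9.90, 10.01 and 9.89 with the empty vector and 10.08, 10.09 and 10.08 with GmbHLHm1. All 3 GmbHLHm1 arrays lay above all empty vector arrays, by a narrow margin. The log2 change was 0.15 ± 0.05 (SE; 95% interval 0.04 to 0.26), which corresponds to a ratio of 1.11, and the adjusted p with limma was 0.0966. The SD of URE2 with GmbHLHm1, 0.00801, was lower than that of nearly every tested gene (percentile 0.807), and its SD with the empty vector was 0.064. URE2 did not pass in any of the fits without 1 array, with adjusted p between 0.102 and 0.291.

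NPR1 (YNL183C), the permease kinase gene, read 11.67, 11.64 and 11.67 with the empty vector and 11.65, 11.46 and 11.59 with GmbHLHm1. One GmbHLHm1 array lay within the empty vector range and the others below it. Its log2 change was -0.09 ± 0.06 (SE; 95% interval -0.23 to 0.04; limma, adjusted p = 0.354). Most of the difference lay in GmbHLHm1 replicate 2, without which the log2 change was -0.04 (adjusted p = 0.608).

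NPR2 (YEL062W), a subunit gene of the TORC1 inhibitor, read 10.33, 10.41 and 10.41 with the empty vector and 10.29, 10.24 and 10.22 with GmbHLHm1. The groups did not overlap. The log2 change was -0.13 ± 0.05 (SE; 95% interval -0.25 to -0.02; limma, adjusted p = 0.117). After quantile normalization of the tested genes it was -0.16 and passed (adjusted p = 0.0478). NPR3 (YHL023C), the partner subunit gene, read 9.98, 10.02 and 9.99 with the empty vector and 10.10, 10.02 and 9.95 with GmbHLHm1. Here the GmbHLHm1 arrays lay on either side of the control range. The log2 change of NPR3 was 0.03 ± 0.05 (SE; 95% interval -0.09 to 0.15; limma, adjusted p = 0.764).

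Of the 8 regulators, 3 (37.5%) had groups that did not overlap, DAL80, URE2 and NPR2, while over all tested genes this share was 33.2%. The counts of regulators called and of regulators without overlap are thus both close to those of all genes. DAL80 differed from the others in size: its change was larger in magnitude than that of 96.3% of tested genes, and the next among the regulators, URE2, stood at percentile 70.5. The ratio of DAL80 to each of the other 7 on the same array was lower with GmbHLHm1 than on any empty vector array. The change of DAL80 was below that of GZF3 by 0.59, with a within-group SD of this ratio of 0.117 and 0.106 for the empty vector and GmbHLHm1. Against GAT1, GLN3 and URE2 the difference of the changes was -0.57, -0.45 and -0.68. The smallest difference was that against NPR2, -0.39. DAL80 was singled out after its values were seen, so these ratios are a description and were given no test.

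**Figure D3:**
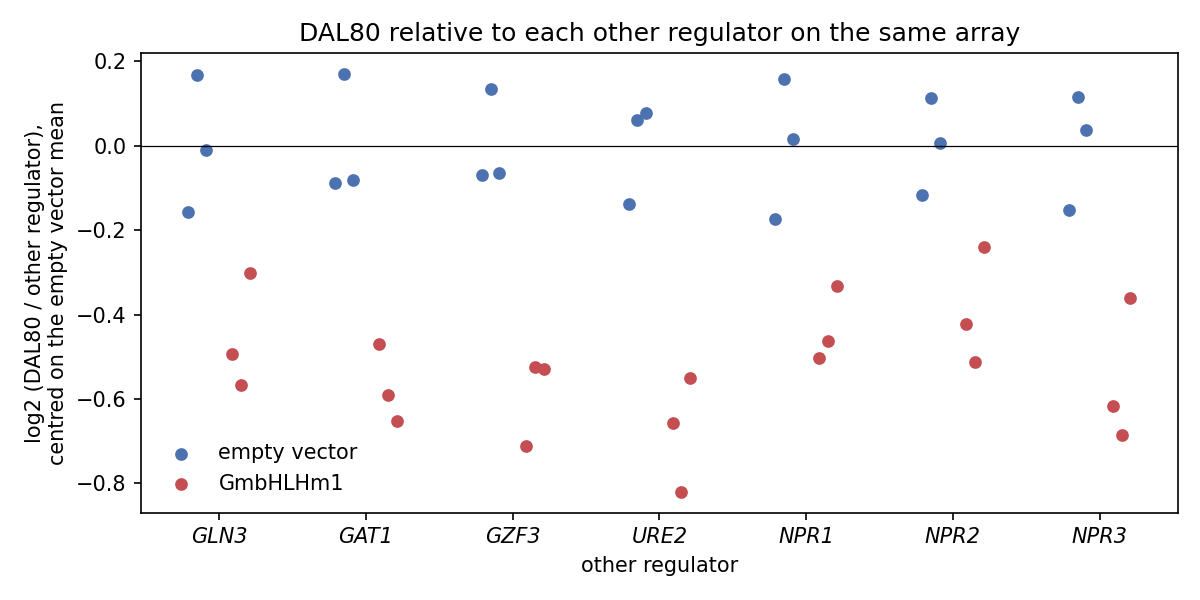
For each of the 7 other regulators, points give log2 (DAL80 / other regulator) on each array, centred on the mean of the 3 empty vector arrays (blue, empty vector; red, GmbHLHm1). In all 7 comparisons the red points lie below the blue ones, with the narrowest gap for NPR2, between -0.12 and -0.24.

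The genes whose profile over the 6 arrays was most like that of DAL80 were MEP1 and MET3, by the root mean square difference of log2 values centred on the empty vector mean (0.0838 and 0.0854 log2 units). MEP1, the ammonium permease gene that carries a mutation in this strain, read 12.89, 12.96 and 13.03 with the empty vector and 12.54, 12.35 and 12.61 with GmbHLHm1. MET3, the gene for ATP sulfurylase in sulfate assimilation, went from 10.76 ± 0.08 to 10.30 ± 0.16 (SD, n = 3 each). In all 3 genes GmbHLHm1 replicate 2 was the lowest array and GmbHLHm1 replicate 3 the highest of its group. The order of the empty vector arrays differed: DAL80 was highest in replicate 2, and MEP1 and MET3 in replicate 3. Both genes were chosen for closeness to DAL80 on these same arrays, so a shared order is partly built in. The likeness rests on 6 arrays in 2 groups and is given as a description.

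The position of the regulators in the genome was examined through the nearest tested gene on either side. Of these 16 neighbours 2 (12.5%) changed, RIM4 and MRPL19, close to the 12.1% over all genes. RIM4, the meiotic gene next to NPR3, rose by 3.89 ± 0.12 (SE; limma, adjusted p = 4.91e-06), while NPR3 itself had a log2 change of 0.03. MRPL19, a mitochondrial ribosomal protein gene next to NPR1, rose by 0.20 (adjusted p = 0.0465). The tested neighbours of DAL80, SPO14 and DID2, had log2 changes of -0.13 and -0.07 and did not pass (adjusted p = 0.29 and 0.563).

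The genes on which the regulators act were then counted. Of 37 listed NCR targets 35 were tested, and 13 fell and 2 rose. Over all genes 4.64% were called lower and 7.45% higher. The median log2 change of the list was -0.14, against 0.02 over all genes, and 30 of the 35 had values below 0. DAL4, the allantoin permease gene, fell by 1.45, UGA4, the permease gene for gamma-aminobutyrate, by 0.76, and DAL7, a malate synthase gene of allantoin breakdown, by 0.63. UGA4 read 10.77, 10.88 and 10.83 with the empty vector and 9.99, 10.09 and 10.14 with GmbHLHm1, so its groups were separate by a wide margin. The genes that rose were MEP3, the ammonium permease gene left intact in this strain, by 0.91 ± 0.16 (SE) and CAR2, an enzyme gene of arginine breakdown, by 0.41 ± 0.08. The 13 include MEP2, below background in both groups, and MEP1. The number of changed NCR targets fell from 15 to 6, 6 and 5 without empty vector replicate 1, 2 or 3, and was 13 to 15 without any 1 GmbHLHm1 array. DAL4, UGA4, DUR3 (a urea permease gene) and CAR1 (the arginase gene) passed in each of the 6 fits without 1 array. DAL7 did not pass without empty vector replicate 2 or 3 (adjusted p up to 0.0552), MEP3 without empty vector replicate 1 or 2 (up to 0.0677), and CAR2 without each of the empty vector arrays or without GmbHLHm1 replicate 3 (up to 0.101).

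DAL80 fell, and of the 35 tested NCR targets 13 fell, 2 rose and 20 did not pass. DAL80 itself was counted with the regulators and is not among the 35. Its log2 change of -0.53 lay within the range of that list, -1.45 to 0.91. Whether the changes of DAL80 and of the NCR targets are related was not tested. Of 12 genes for pathway-specific activators, which work beside the GATA factors, 1 (8.33%) changed, against 12.1% over all genes. This was UGA3, the activator gene of gamma-aminobutyrate use, which fell by 0.25 ± 0.06 (SE; limma, adjusted p = 0.0419). UGA3 passed in only 1 of the 6 fits without 1 array, that without GmbHLHm1 replicate 1, with adjusted p up to 0.148 in the others. DAL81, an activator gene of the allantoin and gamma-aminobutyrate pathways, did not pass, at 0.18 ± 0.05 on the log2 scale (adjusted p = 0.0632).

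Yeast has further genes with GATA-type zinc fingers outside nitrogen control. Of 6 examined 2 (33.3%) changed, against 12.1% over all genes, and these rose. Their median log2 change was 0.26, against 0.02 over all genes. SRD1, implicated in ribosomal RNA processing, read 6.80, 6.88 and 6.93 with the empty vector and 7.45, 7.36 and 7.49 with GmbHLHm1. This rise of 0.57 ± 0.06 (SE; limma, adjusted p = 0.00121) had the opposite direction to that of DAL80 and passed without any 1 array. ASH1, the repressor of mating type switching in daughter cells, rose by 0.23 ± 0.06 (SE; adjusted p = 0.0433), and passed in only 1 of the 6 fits without 1 array (adjusted p up to 0.159). GAT3 was above background on 1 array only, and ECM23 lay close to it, at 4.87, 5.29 and 4.92 with the empty vector. Their log2 changes were 0.31 and 0.28 and did not pass, so the list median rests in part on genes near background.

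**Figure D4:**
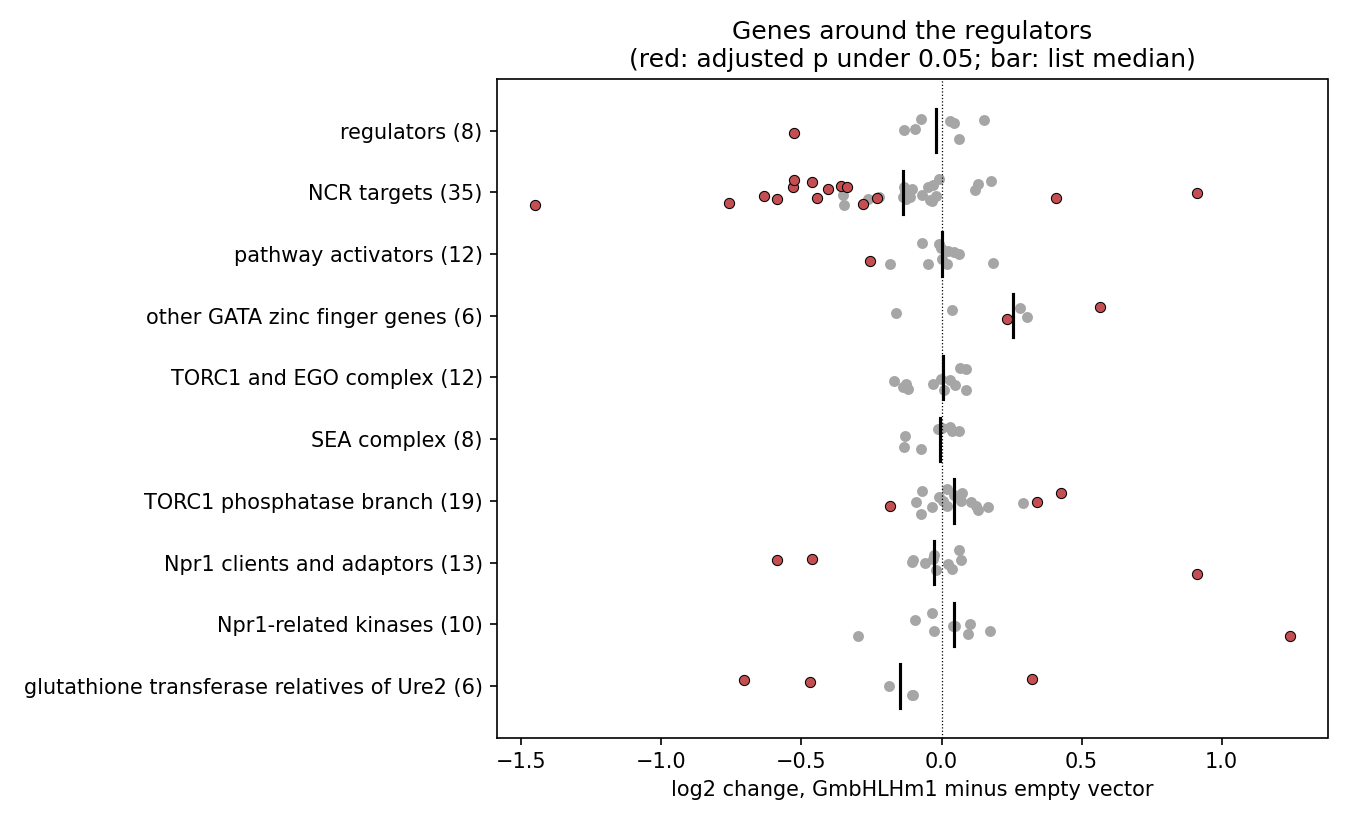
Each point is the log2 change of 1 gene (GmbHLHm1 minus empty vector), by list, with the number of tested genes in brackets; red points have an adjusted p under 0.05, black bars are list medians, and vertical scatter within a list has no meaning. The NCR targets lie mostly below 0, down to -1.45, while the TORC1, EGO and SEA complex genes lie between -0.17 and 0.09.

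None of the 12 genes for TORC1 and the EGO complex, which carries the amino acid signal to TORC1 at the vacuole, passed limma's test, and 3 (25%) had an unadjusted p under 0.05. Over all genes 26.9% had such a p and 12.1% were called, so with 12 genes this count does not stand out. Their log2 changes lay between -0.17 for SLM4, an EGO subunit gene, and 0.09. None of the 8 genes of the SEA complex, which contains NPR2 and NPR3, passed, and 2 (25%) had an unadjusted p under 0.05, NPR2 and IML1, again close to the 26.9% over all genes. IML1, the remaining subunit gene of the TORC1 inhibitor, differed by -0.13 ± 0.05 (SE; adjusted p = 0.171), the same value as NPR2 to this precision.

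Of 19 genes listed for the phosphatase branch below TORC1, the kinase gene SCH9 included, 2 rose and 1 fell. This is 15.8% called against 12.1% over all genes. PPH3, the catalytic subunit gene of protein phosphatase 4, read 9.84, 9.83 and 9.82 with the empty vector and 10.29, 10.25 and 10.23 with GmbHLHm1. It rose by 0.42 ± 0.04 (SE; limma, adjusted p = 0.0011) and passed without any 1 array. SAP4, which encodes a partner of the phosphatase Sit4, rose by 0.34 ± 0.06, and did not pass without empty vector replicate 1 or 2 (adjusted p up to 0.0661). PPM1, a methyltransferase gene that acts on protein phosphatase 2A, fell by 0.18 ± 0.04, and it did not pass in any fit without 1 array (adjusted p 0.0502 to 0.139).

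For NPR1 the kinases of its family and the proteins it acts with were examined. Of 10 kinase genes of the family, NPR1 included, 1 (10%) changed, against 12.1% over all genes. This was PTK1, a kinase gene linked to polyamine uptake, which rose. PTK1 read 11.38, 11.43 and 11.52 with the empty vector and 12.50, 12.77 and 12.80 with GmbHLHm1, a rise of 1.24 ± 0.09 (SE; limma, adjusted p = 0.000236), while NPR1 had a log2 change of -0.09. Of 13 clients and adaptors of Npr1 3 (23.1%) changed, against 12.1% over all genes. GAP1, the general amino acid permease gene, fell by 0.59 and MEP1 by 0.46, and MEP3 rose. These 3 are also NCR targets. GAP1 lost its call without each of the empty vector arrays and without GmbHLHm1 replicate 1 (adjusted p up to 0.116), and MEP1 did not pass without empty vector replicate 3 (0.052). The adaptor and arrestin genes ALY1, ALY2, BUL1, BUL2, LDB19 and PAR32 did not pass, with log2 changes between -0.11 and 0.07.

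URE2 was set beside 6 genes of glutathione transferases and glutathione metabolism, of which 2 fell and 1 rose, where 4.64% of all genes were called lower and 7.45% higher. GTO3 and GTO1, omega class glutathione transferase genes, fell by 0.70 ± 0.04 and 0.47 ± 0.07 (SE; limma, adjusted p = 0.000149 and 0.00835). GTO3 read 10.11, 10.11 and 10.14 with the empty vector and 9.42, 9.37 and 9.46 with GmbHLHm1. Both passed in every fit without 1 array. GTT3, a gene of less certain function in this group, rose by 0.32 ± 0.08 (adjusted p = 0.0374), and passed in only 1 of the 6 fits without 1 array (up to 0.147). The other 3 genes, ECM4, GTT1 and GTT2, did not pass. Their log2 changes were -0.19 (limma, adjusted p = 0.0726), -0.10 and -0.10.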

How the data were processed

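The deposited values are intensities made by the authors with RMA, per the submitters' processing notes; its software is not given in the sources used here. The values run from 5.00 to 28314.2 and were read as linear, and their log2 was taken here. RMA aligns the arrays' distributions, so a shift of all transcripts would not be seen. Of 10928 probe sets 5498 had 1 yeast gene by platform annotation and the gene table of assembly R64, giving 5449 genes, with the brightest probe set per gene. Background is the 95th percentile of 1746 probe sets with other gene identifiers. Genes were tested across all arrays with limma 3.58.1 in R 4.3.3 (lmFit, eBayes, no block, Benjamini-Hochberg, adjusted p under 0.05), after a check on simulated data. Figures used matplotlib 3.10.9. Only 3 arrays per group limit the precision.

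The members, the 9 pathway lists and the tests were chosen with earlier results of these data known. The lists' direction is therefore no independent support. The naming rule took the 8 regulators, MEP2, up to 3 highest and 3 lowest passing genes per list (otherwise the smallest p), and the 2 profiles nearest to a passing regulator. Named outside it, after their values were seen, were the neighbours, DUR3, CAR1, DAL81, GAT3, ECM23, IML1, ECM4, GTT1, GTT2 and the Npr1 adaptors. DUR1,2 and YGR125W of the NCR list are not analysed here, and APE1 stands for the listed LAP4. Sequences were not used.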

Additional observations from a re-analysis of the deposited data

How the results depend on the processing

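Alternatives were a replicate block, 2 other scalings (quantile and median), a filter on dim genes, array weights, a robust prior with trend, no moderation, 2 other choices of probe set (every one, or their mean), a threshold of 0.01, and leaving out each array. The call of DAL80 was lost without moderation (-0.53, adjusted p = 0.0931), at a threshold of 0.01 (-0.53), and without empty vector replicate 2 or 3 (range over all arrays left out -0.61 to -0.46); the remaining alternatives kept it. GLN3, NPR1 and URE2 kept their direction and did not pass under any alternative. NPR2 passed after quantile normalization (-0.16). NPR3 turned negative there (-0.0049), with array weights (-0.0022) and without GmbHLHm1 replicate 1 (-0.0088; range -0.0088 to 0.066), GZF3 without GmbHLHm1 replicate 1 (-0.0059; range to 0.16) and GAT1 without GmbHLHm1 replicate 3 (-0.056; range to 0.10).

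The 659 genes called over the whole table became 427 with the replicate block, 284 without moderation and 243 at 0.01. They became 251 to 341 without 1 empty vector array and 462 to 723 without 1 GmbHLHm1 array. Called regulators were 1 with the replicate block, 2 after quantile normalization, 0 without moderation or at 0.01, and 0 to 1 with 1 array left out. NCR targets called became 9 with the replicate block, 4 without moderation, 3 at 0.01 and 5 to 15 with 1 array left out. The Npr1 clients became 0 without moderation or at 0.01 and 1 to 3 with 1 array left out; the Npr1-related kinases 2 with array weights or the robust prior and 1 to 2 with 1 array left out. The SEA complex had 1 after quantile normalization, and TORC1 and EGO 1 with median centring, array weights or the robust prior. The genes of the phosphatase branch became 1 at 0.01 and 1 to 3 with 1 array left out. The glutathione transferase genes became 5 with the robust prior and 1 without moderation. The other GATA zinc finger genes became 1 with the replicate block, median centring, array weights, no moderation or 0.01, and 1 to 2 with 1 array left out; the pathway activators 0 with the replicate block, without moderation or at 0.01, 2 with array weights, and 0 to 1 with 1 array left out. The causes were not tested. Deviations from the group means correlated at -0.07, -0.08 and 0.14 between replicates of the same number (empty vector replicate 1 correlated best with GmbHLHm1 replicate 2, at 0.19), so the numbers were not taken as pairs.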
